A study of Homo sapiens with 12 samples.

Results

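Mitosis separates the duplicated chromosomes, and the genes described here encode the parts of that machinery. They are 55 genes with known roles in the mitotic spindle, the kinetochore, the spindle checkpoint, cytokinesis and chromosome structure, taken by name from a table of 38021 gene names. All 55 were measured and all 55 were among the 16838 genes with enough counts to be tested. Of these, 54 were listed under the chosen name and 1, SGOL1, under its current name SGO1.

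The RNA came from 786O cells (786-O), an established line of clear cell renal cell carcinoma that lacks functional VHL, and from WT8 cells, which are 786O cells that express wildtype VHL. VHL targets HIF2α for degradation. Each line was infected with a PLKO.1 lentivirus that encoded a scrambled shRNA (shControl) or an shRNA against BMAL1 (shBMAL1), a transcription factor of the circadian clock, and was then selected with puromycin. All 4 groups therefore share infection, selection and culture in the same medium with serum, and each group had 3 libraries labelled as biological replicates. The libraries carry 1 shBMAL1 label, so loss of BMAL1 and other effects of that construct cannot be told apart, and whether replicates came from separate infections is not stated in the sources used here. P-values then measure the spread between these cultures.

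Entry into mitosis is driven by cyclin-dependent kinase 1 with the B-type cyclins. Kinetochores built on centromeric chromatin capture spindle microtubules, and the checkpoint proteins hold back the anaphase-promoting complex (APC/C) until each chromosome is attached. Most of these genes are transcribed in a periodic manner that peaks in G2 and mitosis, so in a population of cells their RNA also reflects how many cells are cycling. In bulk libraries such as these, fewer cells in mitosis and less RNA per cell cannot be told apart.

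The libraries held 33182005 to 36477484 counts, and levels are given as CPM (counts scaled to library size, with TMM factors). BMAL1 (listed as ARNTL) fell from 12.1 ± 1.37 to 3.94 ± 0.22 CPM (mean ± SD, n = 3) with shBMAL1 in 786O and from 9.24 ± 0.966 to 1.65 ± 0.236 CPM in WT8. VHL was at 18.8 ± 1.58 and 19.4 ± 1.62 CPM in 786O shControl and shBMAL1, at 980.2 ± 56.4 CPM in WT8 shControl and at 647 ± 15.1 CPM in WT8 shBMAL1. VHL thus also differed between the WT8 groups (-0.60 ± 0.05 on the log2 scale, change ± SE, adjusted p 6.67e-13), and its part in the results for WT8 was not tested. Among markers of blood, endothelium, fibroblasts and liver, the defining markers PTPRC, CD3E, CDH5, DCN and ALB had means of at most 0.231 CPM in every group. PECAM1 had means of at most 0.701 CPM, COL1A1 of 2.05 to 8.56 CPM and CD68 of 19.1 to 41.9 CPM. COL1A1 and CD68 were highest in 786O shControl and lowest in WT8 shBMAL1. PECAM1, at its low level, was higher in WT8 than in 786O with shControl (log2 difference 7.66). It rose with shBMAL1 in 786O (4.52) and fell in WT8 (-1.43). The part of these markers in the results was not tested. Of 7 genes chosen as markers of the renal carcinoma line, PAX8, PAX2 and KRT18 were higher in WT8 than in 786O with shControl (2.09 ± 0.04, 0.88 ± 0.09 and 0.91 ± 0.04). CDH6, VIM and KRT8 were lower (-1.61 ± 0.05, -1.20 ± 0.04 and -0.27 ± 0.05). CA9 had means of 0.334 and 1.20 CPM in the 786O groups and was at 0 in both WT8 groups.

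The mitotic genes were low in 1 of the 4 groups. Averaged over the 55 genes, the log2 CPM was 6.76, 6.75 and 6.77 in the 786O shControl libraries, 6.86, 6.85 and 6.81 in 786O shBMAL1, 4.59, 4.59 and 4.51 in WT8 with shControl, and 6.70, 6.75 and 6.76 in WT8 with shBMAL1. The 3 WT8 shControl libraries stood below the other 9, which lay within 0.16 of each other. The genes took up 0.811 ± 0.010% of all counts in 786O shControl, 0.849 ± 0.011% in 786O shBMAL1, 0.224 ± 0.006% in WT8 with shControl and 0.890 ± 0.020% in WT8 with shBMAL1 (n = 3 each).

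**Figure D1:**
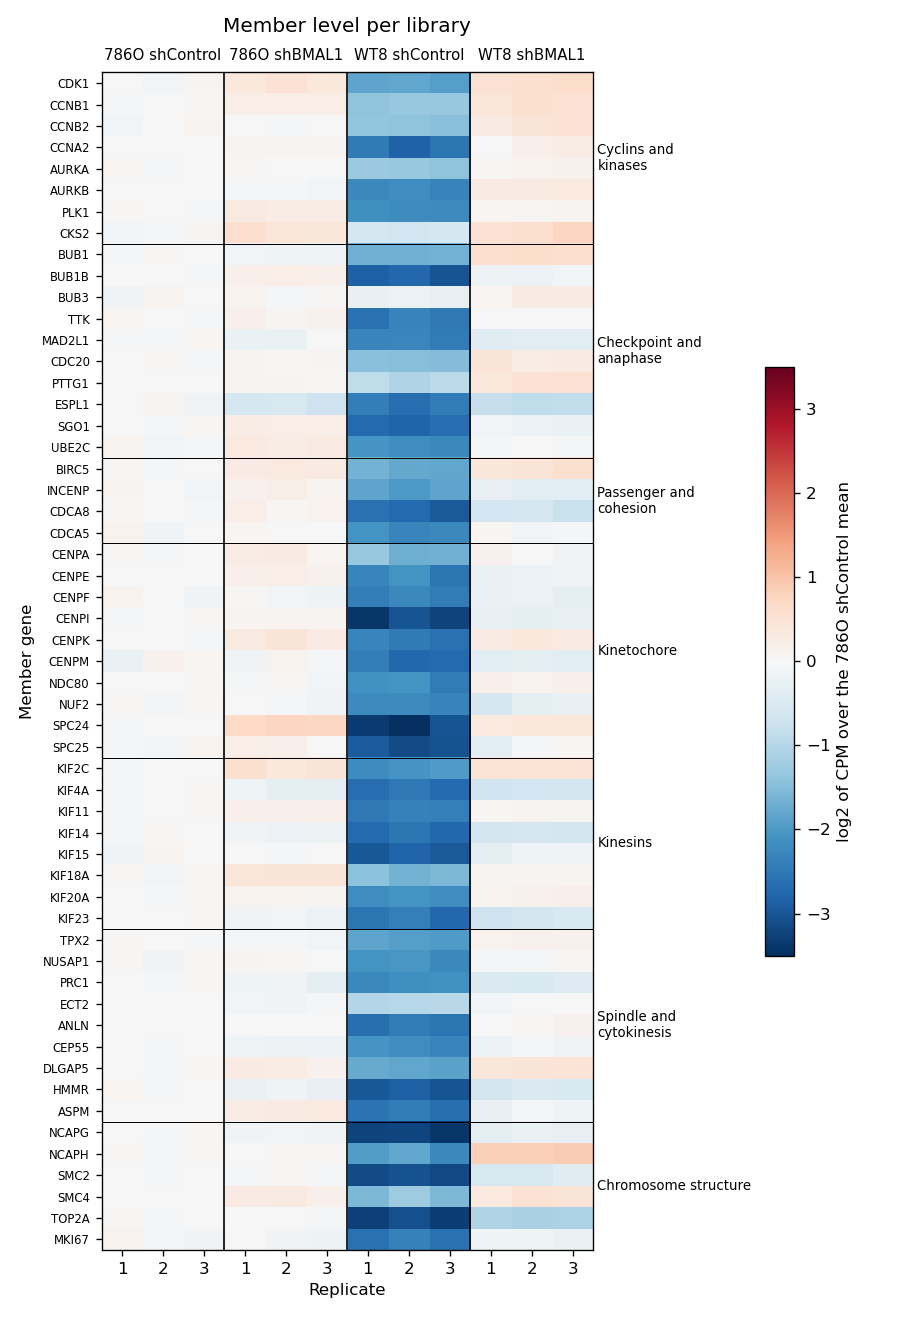
Level of each of the 55 mitotic genes (rows, by role) in each of the 12 libraries (columns, by group and replicate), as the log2 of its CPM over the mean of 786O shControl, from blue (lower) to red (higher). The 3 WT8 shControl columns are blue in nearly every row, palest for BUB3, and the WT8 shBMAL1 columns return to near white except for rows such as TOP2A.

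The first question was how WT8 cells, which express VHL, differ from 786O cells with shControl. With a single line of each kind, expression of VHL and other differences between the lines cannot be told apart. With shControl, 55 of the 55 genes were lower in WT8 than in 786O, beside 40.2% of the 16838 genes tested that were called lower and 39.3% called higher (edgeR quasi-likelihood test, Benjamini-Hochberg adjusted p under 0.1 over all genes tested). Their median log2 difference was -2.26, beside 0.00 over all genes tested, and 51 of them were more than 2-fold lower, which 16.7% of all genes tested were. The second question was what BMAL1 depletion changes in each line. In WT8, 55 of the 55 genes rose with shBMAL1, beside 32.9% of all genes tested called higher and 36.9% called lower. The median log2 change was 2.20, beside -0.04 over all genes tested, and 53 rose by more than 2-fold, beside 7.86% of all genes tested. The largest adjusted p among the genes was that of BUB3 in both comparisons, at 0.000234 between the lines and 3.21e-08 for shBMAL1 in WT8. The groups did not overlap for any of the 55 genes in either comparison. Of all genes tested, 39.3% lay wholly lower in WT8 than in 786O with shControl and 31.6% wholly higher with shBMAL1 in WT8. The comparisons share the WT8 shControl libraries, so they are not independent of each other.

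**Figure D2:**
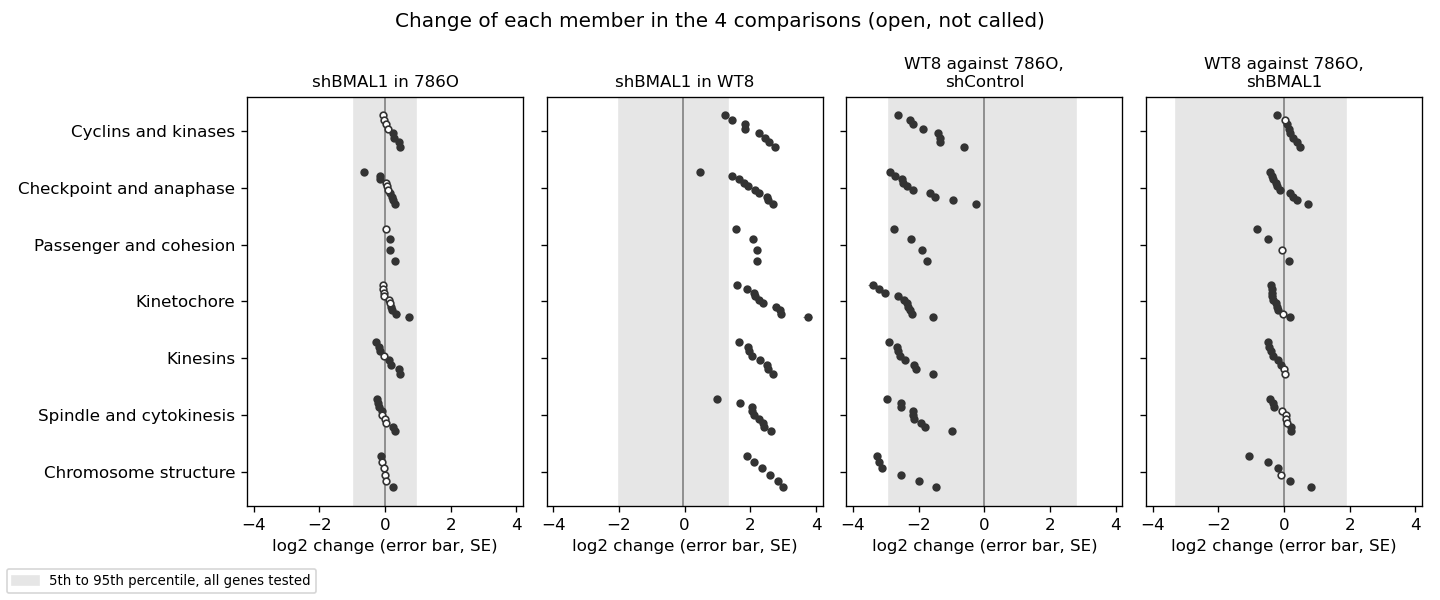
Log2 change (horizontal axis, error bars SE) of each mitotic gene, by role, in 4 comparisons. Filled points were called at an adjusted p under 0.1, open points were not, and the grey band spans the 5th to the 95th percentile of all genes tested. With shBMAL1 in WT8, 53 of the 55 points lie above 1, with shControl 51 of the 55 differences between WT8 and 786O lie below -1, and the points of the other 2 panels gather around 0.

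Among the 8 cyclins and mitotic kinases, the median log2 difference between WT8 and 786O with shControl was -1.64 and the median change with shBMAL1 in WT8 was 2.05. CDK1, the kinase that drives entry into mitosis (GRCh37 chromosome 10, 62538089 to 62554610, plus strand), was at 142, 134 and 155 CPM in 786O shControl, 187, 205 and 185 in 786O shBMAL1, 40.1, 41.1 and 37.7 in WT8 with shControl and 209.6, 212 and 226 in WT8 with shBMAL1. Its log2 difference between WT8 and 786O with shControl was -1.86 ± 0.06 (± SE), and it rose by 2.45 ± 0.06 with shBMAL1 in WT8. CCNB1, its B-type cyclin partner, had 182, 189 and 194 CPM in 786O shControl and 224, 222 and 222 in 786O shBMAL1, beside 71.4, 75.7 and 74.7 in WT8 with shControl and 253, 277 and 268 in WT8 with shBMAL1. In WT8, CCNB2, a second B-type cyclin, went from 46.4, 45.4 and 43.2 CPM with shControl to 147, 165 and 175 with shBMAL1, beside 112, 119.9 and 128 and then 119.6, 114 and 118 CPM in 786O. The B-type cyclins kept more of their level in WT8 shControl than the A-type cyclin did, at differences of -1.35 and -1.41 beside -2.62. CCNA2, which acts in S phase and G2, was at 121, 124 and 123 CPM in 786O shControl, 132, 132 and 132 in 786O shBMAL1, 22, 17.2 and 20.8 in WT8 with shControl and 122, 139 and 146 in WT8 with shBMAL1. AURKA, the kinase of centrosomes and spindle poles, had 151, 142 and 143 CPM in 786O shControl and 149, 147 and 144 in 786O shBMAL1, beside 59.1, 57.4 and 54.9 in WT8 with shControl and 149, 157 and 162 in WT8 with shBMAL1. In WT8, AURKB, the kinase of the chromosomal passenger complex, went from 22.8, 24.3 and 21.7 CPM with shControl to 135, 137 and 138 with shBMAL1, beside 110, 109.9 and 109 and then 105, 107 and 103 CPM in 786O. With shBMAL1 in WT8, AURKA rose by 1.45 ± 0.05 and AURKB by 2.58 ± 0.05. PLK1, a kinase with roles from centrosome maturation to cytokinesis, was at 259.7, 252 and 240.3 CPM in 786O shControl, 310.1, 303 and 301 in 786O shBMAL1, 57.2, 55.1 and 53.1 in WT8 with shControl and 265, 258 and 267 in WT8 with shBMAL1. CKS2, a small subunit that binds cyclin-dependent kinases, had 135, 139.7 and 153 CPM in 786O shControl and 213, 190.5 and 187 in 786O shBMAL1, beside 94.3, 89.1 and 93.6 in WT8 with shControl and 204, 211 and 240 in WT8 with shBMAL1. CKS2 moved least of the 8 genes, by -0.63 ± 0.06 between the lines and by 1.24 ± 0.06 with shBMAL1 in WT8.

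Among the 10 genes of the checkpoint and of anaphase, medians were -2.25 between the lines and 2.04 with shBMAL1 in WT8. BUB3, which binds both BUB1 and BUB1B at kinetochores, stood apart from its partners. In WT8, BUB3, at GRCh37 chromosome 10, 124913918 to 124929983, plus strand, went from 154, 162 and 151 CPM with shControl to 194, 226 and 225 with shBMAL1, beside 171, 197 and 189 and then 201, 179 and 191 CPM in 786O. Its difference between the lines was -0.25 ± 0.06 and its rise in WT8 0.47 ± 0.06, the smallest of the 55 genes in both comparisons. BUB1, a checkpoint kinase, was at 201, 215 and 207 CPM in 786O shControl, 193, 186 and 187 in 786O shBMAL1, 64.6, 65.4 and 65.5 in WT8 with shControl and 312, 319 and 315 in WT8 with shBMAL1. BUB1B, the pseudokinase BUBR1 of the mitotic checkpoint complex, had 104, 107 and 103 CPM in 786O shControl and 119, 124 and 119.8 in 786O shBMAL1, beside 14.6, 15.7 and 13 in WT8 with shControl and 93.4, 90.3 and 98 in WT8 with shBMAL1. BUB1B rose by 2.70 ± 0.06 and BUB1 by 2.27 ± 0.04 with shBMAL1 in WT8. In WT8, TTK, the kinase MPS1, which starts checkpoint signalling, went from 10.5, 12.7 and 11.4 CPM with shControl to 65.5, 65.7 and 64.1 with shBMAL1, beside 67.4, 64.8 and 61.9 and then 73.1, 69.3 and 71.2 CPM in 786O. MAD2L1, the checkpoint protein MAD2, which inhibits CDC20, was at 82.3, 81.3 and 89.1 CPM in 786O shControl, 71.4, 71.9 and 83.1 in 786O shBMAL1, 17, 17.3 and 15.4 in WT8 with shControl and 62.6, 63.9 and 64.4 in WT8 with shBMAL1. CDC20, the APC/C activator that the checkpoint restrains, had 329, 337 and 322 CPM in 786O shControl and 352, 336 and 352 in 786O shBMAL1, beside 120.1, 117 and 116 in WT8 with shControl and 448, 395 and 404 in WT8 with shBMAL1. The inhibitor MAD2L1 and its target CDC20 both rose in WT8, by 1.94 ± 0.07 and 1.82 ± 0.05. In WT8, PTTG1, securin, the inhibitor of separase, went from 62, 55.1 and 59.6 CPM with shControl to 149.7, 164 and 165 with shBMAL1, beside 117, 114 and 114 and then 123, 122 and 119 CPM in 786O. ESPL1, separase, the protease that cuts cohesin at anaphase (GRCh37 chromosome 12, 53662083 to 53687422, plus strand), was at 79.8, 84 and 72.8 CPM in 786O shControl, 51.8, 53.1 and 48 in 786O shBMAL1, 14.7, 12.4 and 14.4 in WT8 with shControl and 45.3, 42.6 and 43.5 in WT8 with shBMAL1. ESPL1 rose by 1.66 ± 0.07 and PTTG1 by 1.44 ± 0.05 with shBMAL1 in WT8. SGO1, shugoshin, which protects cohesin at centromeres, had 23.9, 22.3 and 24.6 CPM in 786O shControl and 28.4, 27.9 and 27.6 in 786O shBMAL1, beside 3.61, 3.36 and 3.75 in WT8 with shControl and 22, 20.3 and 19.9 in WT8 with shBMAL1. In WT8, UBE2C, a ubiquitin-conjugating enzyme of the APC/C, went from 59.1, 55.5 and 52.2 CPM with shControl to 244, 246 and 241 with shBMAL1, beside 267, 234 and 244 and then 313, 298 and 308 CPM in 786O. In each of these genes the 3 WT8 shControl libraries were the lowest of the 12.

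The chromosomal passenger complex and sororin gave 4 genes, with medians of -2.06 between the lines and 2.14 with shBMAL1 in WT8. BIRC5, survivin, a subunit of the passenger complex, was at 255, 237 and 252 CPM in 786O shControl, 301, 316 and 308 in 786O shBMAL1, 79.5, 71.5 and 70.5 in WT8 with shControl and 324, 337 and 363 in WT8 with shBMAL1. INCENP, the scaffold of that complex, had 92.8, 86.6 and 80.8 CPM in 786O shControl and 96.2, 100 and 93.1 in 786O shBMAL1, beside 24.2, 21.4 and 24.1 in WT8 with shControl and 71.1, 67.2 and 67.6 in WT8 with shBMAL1. In WT8, CDCA8, borealin, a further regulatory subunit, went from 12.1, 11.2 and 9.65 CPM with shControl to 45.9, 49 and 43.1 with shBMAL1, beside 76, 72.8 and 71.9 and then 86.7, 77.8 and 79.9 CPM in 786O. These 3 subunits and the kinase AURKB form 1 complex, and they rose in WT8 by 2.21 ± 0.05, 1.56 ± 0.06, 2.07 ± 0.07 and 2.58 ± 0.05. CDCA5, sororin, which stabilises cohesin on sister chromatids, was at 48.8, 41.5 and 45.1 CPM in 786O shControl, 47, 45.6 and 45.7 in 786O shBMAL1, 10.6, 9.1 and 9.37 in WT8 with shControl and 47.6, 42.4 and 44.1 in WT8 with shBMAL1. CDCA5 rose by 2.20 ± 0.08 in WT8.

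The 10 kinetochore genes included the largest changes, with medians of -2.41 between the lines and 2.32 with shBMAL1 in WT8. SPC24, a subunit of the NDC80 complex (GRCh37 chromosome 19, 11242196 to 11266483, minus strand), had 10.8, 11.4 and 11.4 CPM in 786O shControl and 18.2, 19 and 18.4 in 786O shBMAL1, beside 1.09, 0.696 and 1.39 in WT8 with shControl and 14.3, 14.5 and 14.4 in WT8 with shBMAL1. The WT8 shControl libraries held 24 to 51 counts of SPC24, the lowest counts of any of the 55 genes, and its changes of -3.40 ± 0.14 and 3.75 ± 0.14 were the largest and least precise. In WT8, SPC25, its partner subunit, went from 3.48, 2.96 and 3.12 CPM with shControl to 19.9, 25.5 and 27.4 with shBMAL1, beside 25.4, 24.5 and 28.3 and then 30.7, 29.4 and 26.3 CPM in 786O. NDC80, which binds microtubules, was at 62.7, 63 and 65.7 CPM in 786O shControl, 62.4, 65.8 and 60 in 786O shBMAL1, 14.6, 15.1 and 11.7 in WT8 with shControl and 72.1, 70.1 and 72.7 in WT8 with shBMAL1. NUF2, the partner of NDC80, had 52, 47.3 and 52.8 CPM in 786O shControl and 50.3, 49.6 and 46.7 in 786O shBMAL1, beside 10.8, 10.8 and 10 in WT8 with shControl and 34, 40.6 and 42.1 in WT8 with shBMAL1. The 4 subunits of the NDC80 complex rose in WT8 by 3.75 for SPC24, 2.93 for SPC25, 2.38 for NDC80 and 1.89 for NUF2 (SE of at most 0.14), differences among subunits that were not tested. In WT8, CENPA, the centromeric form of histone H3, went from 9.64, 7.48 and 7.55 CPM with shControl to 27, 24.5 and 22.5 with shBMAL1, beside 25.2, 23.9 and 24 and then 29.3, 29.9 and 25.5 CPM in 786O. CENPI, of the inner kinetochore, was at 31.6, 33.7 and 33.8 CPM in 786O shControl, 35.6, 35.4 and 35.6 in 786O shBMAL1, 3.12, 4.06 and 3.53 in WT8 with shControl and 26.9, 26 and 27.8 in WT8 with shBMAL1. CENPK, also of the inner kinetochore, had 10.9, 10.9 and 10.3 CPM in 786O shControl and 13.4, 14.5 and 13.1 in 786O shBMAL1, beside 2.17, 1.94 and 1.74 in WT8 with shControl and 13, 13.9 and 13.3 in WT8 with shBMAL1. CENPA changed least of the 10, by -1.56 ± 0.10 between the lines and 1.58 ± 0.09 in WT8, while CENPI changed by -3.21 and 2.91. In WT8, CENPM, a further inner kinetochore subunit, went from 3.67, 2.9 and 2.96 CPM with shControl to 14.9, 15.7 and 14.9 with shBMAL1, beside 16.8, 21.6 and 20.5 and then 17.9, 21.3 and 19.1 CPM in 786O. CENPE, a kinesin-like motor of the outer kinetochore, was at 91.2, 93.3 and 93.2 CPM in 786O shControl, 104, 109 and 103 in 786O shBMAL1, 18.6, 21.7 and 15.8 in WT8 with shControl and 78.6, 81 and 85.8 in WT8 with shBMAL1. CENPF, a large outer kinetochore protein, had 283, 263 and 241 CPM in 786O shControl and 272, 246 and 231 in 786O shBMAL1, beside 49.4, 54.9 and 48.2 in WT8 with shControl and 222, 229 and 206 in WT8 with shBMAL1. CENPE rose by 2.13 ± 0.07 and CENPF by 2.11 ± 0.07 in WT8.

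The 8 kinesins, motor proteins that move along or depolymerise microtubules, had medians of -2.49 and 2.17. In WT8, KIF11, the motor Eg5 that pushes spindle poles apart, went from 17.6, 19.1 and 18.8 CPM with shControl to 103, 105 and 105 with shBMAL1, beside 95.5, 99 and 102 and then 112, 112 and 111 CPM in 786O. KIF15, a motor that can share that task, was at 36.5, 42 and 39.8 CPM in 786O shControl, 39.6, 38.5 and 38.8 in 786O shBMAL1, 5.03, 5.68 and 5.16 in WT8 with shControl and 30.9, 35.5 and 36.1 in WT8 with shBMAL1. KIF2C, the microtubule depolymerase MCAK, had 126, 132 and 132 CPM in 786O shControl and 193, 169 and 177 in 786O shBMAL1, beside 28.1, 31.3 and 33.1 in WT8 with shControl and 182, 180.4 and 180 in WT8 with shBMAL1. KIF15 moved most of the 8, by -2.90 ± 0.09 between the lines and 2.69 ± 0.09 with shBMAL1 in WT8. In WT8, KIF18A, which dampens chromosome movements at the metaphase plate, went from 16.3, 14.1 and 14.9 CPM with shControl to 47.2, 47.6 and 47.8 with shBMAL1, beside 46, 41.2 and 45.9 and then 59.1, 60.4 and 60.3 CPM in 786O. KIF4A, a chromokinesin, was at 137, 139 and 143 CPM in 786O shControl, 127, 110.2 and 111 in 786O shBMAL1, 22, 24.8 and 21.2 in WT8 with shControl and 85.7, 87.4 and 89.4 in WT8 with shBMAL1. KIF14, which acts in cytokinesis, had 48.1, 51.7 and 50 CPM in 786O shControl and 45.5, 43.7 and 44 in 786O shBMAL1, beside 7.53, 8.58 and 7.47 in WT8 with shControl and 31.9, 33.5 and 31.8 in WT8 with shBMAL1. KIF18A moved least, by -1.55 ± 0.07 and 1.65 ± 0.07. The value of KIF4A is uncertain because the near-identical retrogene KIF4B was listed with 36.1 ± 1.58, 28.5 ± 2.89, 5.75 ± 0.789 and 21.1 ± 2.09 CPM in the same order of groups, so reads may have been divided between the copies. In WT8, KIF20A, which works in the central spindle, went from 35.1, 36.8 and 34.9 CPM with shControl to 171, 175 and 178 with shBMAL1, beside 156, 153 and 162 and then 171, 170.1 and 168 CPM in 786O. KIF23, the motor of the centralspindlin complex, was at 166, 167 and 173 CPM in 786O shControl, 156, 158 and 146 in 786O shBMAL1, 28.9, 32.1 and 25.1 in WT8 with shControl and 103, 109 and 117 in WT8 with shBMAL1. KIF20A rose by 2.29 ± 0.05 and KIF23 by 1.94 ± 0.06 in WT8.

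The 9 genes of spindle assembly and cytokinesis had medians of -2.17 and 2.11. TPX2, which activates AURKA on the spindle, had 417, 403 and 397 CPM in 786O shControl and 384, 385 and 377 in 786O shBMAL1, beside 112, 107 and 103 in WT8 with shControl and 441, 450.4 and 448 in WT8 with shBMAL1. In WT8, NUSAP1, a microtubule-bundling protein, went from 49.1, 51 and 43.7 CPM with shControl to 202, 199 and 219.6 with shBMAL1, beside 216, 193 and 221 and then 223, 215 and 207 CPM in 786O. PRC1, the antiparallel microtubule bundler of the central spindle, was at 369, 360.4 and 387 CPM in 786O shControl, 333, 342 and 299 in 786O shBMAL1, 77.5, 83.8 and 85.8 in WT8 with shControl and 264, 257 and 271 in WT8 with shBMAL1. PRC1 rose by 1.68 ± 0.05 in WT8 and TPX2 by 2.06 ± 0.04. ECT2, the exchange factor that activates RhoA for cytokinesis, had 234, 229.8 and 234 CPM in 786O shControl and 218, 215 and 225 in 786O shBMAL1, beside 115, 116 and 118 in WT8 with shControl and 219, 234 and 229 in WT8 with shBMAL1. In WT8, ANLN, anillin, the scaffold of the contractile ring, went from 95.8, 109 and 102 CPM with shControl to 601, 627 and 664 with shBMAL1, beside 599, 595 and 590.3 and then 600.1, 587 and 602 CPM in 786O. CEP55, of the midbody, was at 138, 133 and 136 CPM in 786O shControl, 122, 120.2 and 117 in 786O shBMAL1, 32.3, 30.3 and 27.6 in WT8 with shControl and 119, 129 and 125 in WT8 with shBMAL1. ECT2 changed least of the 9 in both comparisons and rose by 0.97 ± 0.04 in WT8, whereas ANLN, which works beside it at the cleavage furrow, rose by 2.62 ± 0.05. DLGAP5, the spindle protein HURP, had 90.5, 88.8 and 95.6 CPM in 786O shControl and 112, 109.7 and 102 in 786O shBMAL1, beside 27, 26.1 and 25.2 in WT8 with shControl and 121, 126 and 127 in WT8 with shBMAL1. In WT8, HMMR, a spindle protein that binds hyaluronan at the cell surface, went from 14.6, 15.8 and 14.2 CPM with shControl to 74.2, 81 and 80.2 with shBMAL1, beside 120.3, 112 and 114 and then 97.8, 104 and 94.6 CPM in 786O. ASPM, a protein of the spindle poles, was at 142, 141 and 142 CPM in 786O shControl, 170.5, 174 and 179 in 786O shBMAL1, 23.9, 26.2 and 23 in WT8 with shControl and 119.7, 138 and 129 in WT8 with shBMAL1. HMMR differed most between the lines, by -2.96 ± 0.06.

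The 6 genes of chromosome structure had the largest medians, -2.82 between the lines and 2.47 with shBMAL1 in WT8. NCAPG, a subunit of condensin I (GRCh37 chromosome 4, 17812602 to 17846488, plus strand), had 117, 113 and 124 CPM in 786O shControl and 108, 111 and 108 in 786O shBMAL1, beside 12.4, 12.8 and 11.2 in WT8 with shControl and 93.3, 101 and 96.5 in WT8 with shBMAL1. In WT8, NCAPH, another subunit of condensin I, went from 20, 22.2 and 16.4 CPM with shControl to 139, 138 and 144 with shBMAL1, beside 79.7, 73.7 and 80 and then 77.2, 80.4 and 79.3 CPM in 786O. SMC2, a core ATPase of both condensins, was at 179, 174 and 181 CPM in 786O shControl, 174, 182 and 173 in 786O shBMAL1, 20.4, 21.6 and 20.1 in WT8 with shControl and 121, 120 and 133 in WT8 with shBMAL1. NCAPG had the second largest rise of the 55 genes in WT8, 3.00 ± 0.06, and NCAPH rose by 2.85 ± 0.07. SMC4, the ATPase partner of SMC2, had 273, 265 and 268 CPM in 786O shControl and 326, 332 and 304 in 786O shBMAL1, beside 89.8, 113 and 89.9 in WT8 with shControl and 338, 389.9 and 367 in WT8 with shBMAL1. In WT8, TOP2A, topoisomerase IIα, which untangles sister chromatids (GRCh37 chromosome 17, 38544777 to 38574148, minus strand), went from 60, 68.3 and 57.9 CPM with shControl to 278, 264 and 269 with shBMAL1, beside 597, 558 and 569 and then 575, 569 and 547 CPM in 786O. MKI67, the proliferation marker Ki-67, which coats mitotic chromosomes, was at 438, 393 and 370.1 CPM in 786O shControl, 406, 369 and 357 in 786O shBMAL1, 65.9, 77.3 and 65.4 in WT8 with shControl and 363, 358 and 343 in WT8 with shBMAL1. Between the lines the partners SMC2 and SMC4 were at -3.11 ± 0.05 and -1.46 ± 0.08.

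**Figure D3:**
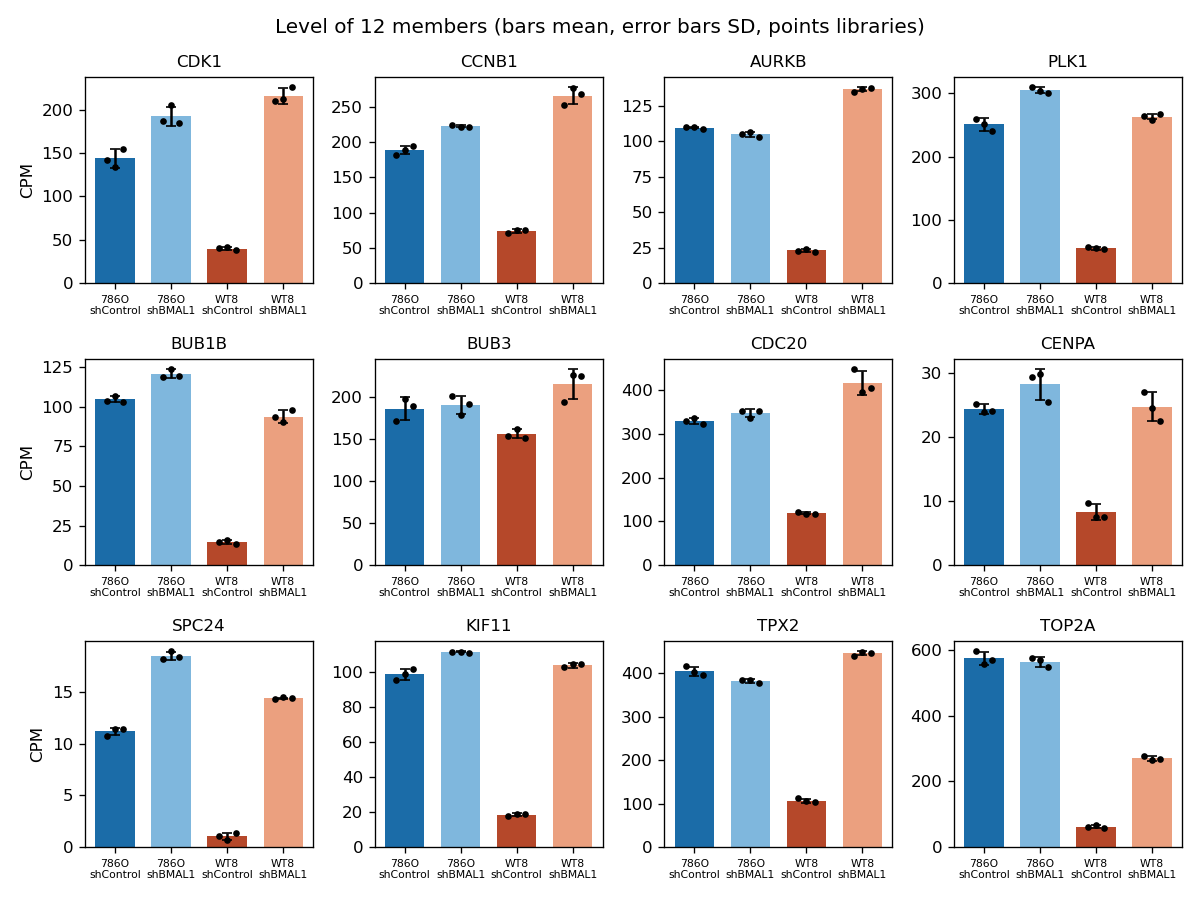
CPM (vertical axes, from 0) of 12 of the mitotic genes in the 4 groups. Bars are means, error bars SD and points the 3 libraries of a group. The WT8 shControl bar is the lowest in every panel, by the least for BUB3 (156 CPM beside 186 in 786O shControl), and TOP2A in WT8 shBMAL1 (270.3 CPM) remains below 786O (575 and 564 CPM).

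Levels can be compared between genes only per length of transcript. On the RPKM scale, taken over the union of annotated exons, CKS2 (232), UBE2C (193.0) and CDC20 (164.0) were the highest of the 55 genes in 786O shControl and CENPK (2.48), SPC24 (3.95) and CENPI (4.74) the lowest. In WT8 shControl the range ran from 149.9 RPKM for CKS2 to 0.372 RPKM for SPC24. The 3 lowest genes encode kinetochore subunits.

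In 786O cells shBMAL1 moved the mitotic genes little and in both directions. Of the 55 genes, 22 were called higher, beside 24.5% of all genes tested, 11 were called lower, beside 24.4%, and 22 were not called. The median log2 change was 0.03, beside 0.00 over all genes tested, and 53 of the changes were within 0.5 of 0. The quartiles of all genes tested were -0.26 and 0.24. Of the 55 genes 0 passed 2-fold, beside 4.50% of all genes tested that rose and 4.42% that fell by more than 2-fold. The largest rises were SPC24 (0.72 ± 0.10, adjusted p 1.82e-07), KIF2C (0.46 ± 0.05) and CKS2 (0.46 ± 0.06). KIF18A (0.43 ± 0.06) and CDK1 (0.42 ± 0.05) followed, and in each of these 5 genes the 3 shBMAL1 libraries lay above the 3 shControl libraries, as in 25.7% of all genes tested. The largest falls were ESPL1 (-0.63 ± 0.06, adjusted p 3.16e-10), KIF4A (-0.27 ± 0.05) and HMMR (-0.23 ± 0.05). ESPL1 was the only gene of the 55 to fall by more than 1.5-fold in 786O, from 79.8, 84.0 and 72.8 to 51.8, 53.1 and 48.0 CPM. The 22 genes not called included ANLN (0.00 ± 0.04), TOP2A (-0.03 ± 0.05), MKI67 (-0.09 ± 0.06) and NDC80 (-0.02 ± 0.06). Of the 33 calls, 23 (17 higher and 6 lower) held without each library in turn and under each other scaling, filter, tool and choice of samples. The 10 that were lost without at least 1 library were CDCA8, CENPA, INCENP, KIF14, KIF20A, KIF23, MAD2L1, NCAPG, TPX2 and TTK, with adjusted p-values up to 0.298.

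The change with shBMAL1 differed between the lines for 55 of the 55 genes (interaction term of the same edgeR fit, the change in WT8 minus that in 786O), beside 27.4% of all genes tested with a higher change in WT8 and 28.5% with a lower one. The median interaction was 2.15, beside -0.03 over all genes tested. It ranged from 0.43 ± 0.08 for BUB3 (adjusted p 4.69e-05) to 3.11 ± 0.08 for NCAPG (adjusted p 2.33e-27). For 11 genes the calls were in opposite directions, lower in 786O and higher in WT8. All 55 rose in WT8, so these 11 were the genes called lower in 786O, beside 24.4% of all genes tested called lower there. These were BUB1, MAD2L1, ESPL1, KIF4A, KIF14, KIF23, TPX2, PRC1, CEP55, HMMR and NCAPG, and ESPL1 had the largest fall in 786O among them, with an interaction of 2.29 ± 0.10. The fall in 786O of 5 of the 11 (KIF14, KIF23, MAD2L1, NCAPG and TPX2) lost its call without at least 1 library.

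With shBMAL1 in both lines, WT8 and 786O were close for most of the genes but not equal. In WT8 16 genes were called higher, beside 36.0% of all genes tested, 29 were called lower, beside 37.0%, and 10 were not called, with a median of -0.13 beside 0.00 over all genes tested. When libraries were scaled by total counts alone, the median over all genes tested moved by 0.11 and the calls among the 55 became 22 higher and 21 lower, so the balance of small differences depends on the scaling. KIF11, called lower at -0.10 ± 0.05, turned to 0.01 under that scaling, and it was the only called gene of the 55 to change sign. TOP2A was lower in WT8 (-1.06 ± 0.05, adjusted p 9.31e-21), the only gene of the 55 that differed by more than 2-fold. CDCA8 was at -0.82 ± 0.06 and SMC2 at -0.50 ± 0.05, the next lowest, followed by INCENP at -0.49 ± 0.06. NCAPH (0.83 ± 0.06) and BUB1 (0.74 ± 0.04) were higher in WT8 shBMAL1 than in 786O shBMAL1, followed by CCNB2 (0.47 ± 0.05). For NCAPH and BUB1 the WT8 shBMAL1 libraries were also above the 786O shControl libraries, at 139, 138 and 144 beside 79.7, 73.7 and 80.0 CPM for NCAPH and at 312, 319 and 315 beside 201, 215 and 207 CPM for BUB1. By role, 6 of the 8 cyclins and kinases were called higher in WT8, 8 of the 10 kinetochore genes were called lower and 6 of the 8 kinesins were called lower. Of the 45 calls, 34 held without each library in turn and under each other scaling, filter, tool and choice of samples, and CENPA, CKS2, SMC4, TTK, SPC25, AURKA, KIF11 and KIF15 lost theirs without at least 1 library, with adjusted p-values up to 0.243.

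The promoters of the 55 genes were searched for 3 motifs. The cell cycle genes homology region (CHR) is a hexamer near the start site of many late cell cycle genes, bound by the MuvB complex. The CCAAT box is bound by NF-Y, and the E-box is the element to which BMAL1 binds with its partner CLOCK. The search used RefSeq windows (GRCh38.p14) from 250 bases before to 50 bases after each start, which held 54 windows for 48 of the 55 genes. AURKA, BIRC5, BUB3, CENPM, TPX2, TTK and UBE2C had no window and were not searched. The motifs were TTTGAA or TTCGAA for the CHR, CCAAT for the CCAAT box and CACGTG for the E-box, each on either strand. A match is a description of the letters and not a site of binding. The 55 genes were taken by name for their roles in mitosis, so their share of matches does not depend on the changes measured here. Promoters of the other lists were not searched as sets, and whether the motifs bear on the changes was not tested.

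The CHR letters were present in 39 of the 54 windows (72.2%), beside 16.4% of all 35116 windows. Between 60 bases before and 30 bases after the start, 31 of the 54 windows (57.4%) had a CHR match, beside 4.70% of all windows and 3.33% of those of genes tested. CCAAT was present in 39 of the 54 windows (72.2%), beside 34.6% of all windows, and both CHR and CCAAT in 29 of the 54 (53.7%), beside 6.38%. The E-box was present in 6 of the 54 windows (11.1%), beside 7.26% of all windows and 9.10% of those of genes tested. These 6 belonged to CENPF, SGO1, CENPE, CCNB1, ANLN and PLK1.

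Stretches from 120 bases before to 30 bases after the start are shown for 1 gene from each of 6 roles with a CHR match there, with a CCAAT match as well in 5 of the 6, and for CCNB1 and CCNA2, which had a CCAAT match but no match to these CHR letters. Capitals mark the CHR and CCAAT letters on either strand, 5′ to 3′ along the gene.
CDK1 (GRCh38.p14 chr10:60778358-60778507, plus strand): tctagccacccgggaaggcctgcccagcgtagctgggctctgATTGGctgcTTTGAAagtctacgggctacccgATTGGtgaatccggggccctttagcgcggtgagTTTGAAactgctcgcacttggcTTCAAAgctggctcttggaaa
CDC20 (GRCh38.p14 chr1:43358861-43359010, plus strand): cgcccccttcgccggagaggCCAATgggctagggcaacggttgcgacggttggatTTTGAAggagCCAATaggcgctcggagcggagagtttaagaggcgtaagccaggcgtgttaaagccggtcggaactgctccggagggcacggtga
CENPA (GRCh38.p14 chr2:26785936-26786085, plus strand): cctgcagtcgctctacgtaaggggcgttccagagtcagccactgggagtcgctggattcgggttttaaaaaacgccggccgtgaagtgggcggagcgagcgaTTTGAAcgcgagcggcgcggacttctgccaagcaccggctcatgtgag
KIF11 (GRCh38.p14 chr10:92593010-92593159, plus strand): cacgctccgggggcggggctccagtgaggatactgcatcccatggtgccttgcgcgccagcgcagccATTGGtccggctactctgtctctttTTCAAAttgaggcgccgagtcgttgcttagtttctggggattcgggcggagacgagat
PRC1 (GRCh38.p14 chr15:90994506-90994655, minus strand): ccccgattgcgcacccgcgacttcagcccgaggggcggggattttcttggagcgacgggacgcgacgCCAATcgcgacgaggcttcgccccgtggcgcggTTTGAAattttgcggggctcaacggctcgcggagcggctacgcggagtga
MKI67 (GRCh38.p14 chr10:128126394-128126543, minus strand): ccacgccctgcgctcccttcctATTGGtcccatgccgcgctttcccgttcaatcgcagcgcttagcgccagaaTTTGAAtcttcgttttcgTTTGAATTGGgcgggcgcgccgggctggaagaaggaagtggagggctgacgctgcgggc
CCNB1 (GRCh38.p14 chr5:69167030-69167179, plus strand): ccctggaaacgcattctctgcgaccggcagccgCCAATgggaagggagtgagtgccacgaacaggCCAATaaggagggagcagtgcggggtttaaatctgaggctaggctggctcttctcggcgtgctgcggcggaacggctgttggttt
CCNA2 (GRCh38.p14 chr4:121823854-121824003, minus strand): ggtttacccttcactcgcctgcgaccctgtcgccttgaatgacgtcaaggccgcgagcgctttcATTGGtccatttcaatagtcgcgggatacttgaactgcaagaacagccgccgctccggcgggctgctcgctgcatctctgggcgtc
The CHR match starts 28 bases before the start of KIF11, 20 before that of PRC1, 18 before that of CENPA and 65 before that of CDC20. In MKI67 the CHR match at 29 bases before the start shares 1 base with a CCAAT match. All 55 genes were lower in WT8 shControl and rose with shBMAL1 in WT8. The 8 genes shown, CCNB1 and CCNA2 among them, could therefore not differ in direction, whatever their motifs. Only TTTGAA and TTCGAA were searched for the CHR, so whether CCNB1 and CCNA2 lack a CHR was not tested.

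**Figure D4:**
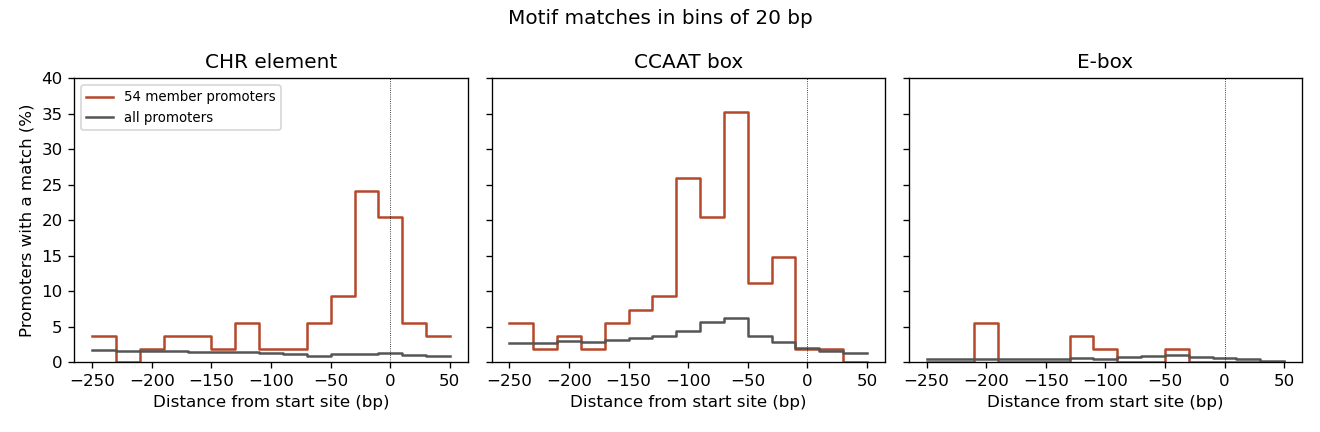
Share of promoters (vertical axis, percent) with a motif match starting in each bin of 20 bp, by distance from the start site (horizontal axis, negative before the start), for the 54 windows of mitotic genes and for all 35116 windows. In the mitotic genes CHR matches peak at 24.1% in the bin from 30 to 10 bp before the start and CCAAT matches at 35.2% in the bin from 70 to 50 bp before it, and E-box matches stay at or below 5.56% in every bin.

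Lists of related genes give the setting of these changes. Genes named for being exceptions or extremes in them were chosen after their values were seen. With shBMAL1 in WT8, 32.9% of all genes tested were called higher and 36.9% lower. Between the lines with shControl, 39.3% were called higher and 40.2% lower. Of 30 other kinetochore genes, 28 rose and 1 fell with shBMAL1 in WT8 (median 2.07), and 28 were lower in WT8 than in 786O with shControl (median -2.13). The 1 that fell was CENPB (-0.22 ± 0.05), which binds a DNA element of centromeric repeats. Of 30 other spindle genes, 28 rose and 1, the microtubule depolymerase KIF2A (-0.15 ± 0.07), fell in WT8 (median 1.68), and 29 were lower between the lines (median -1.90). A list of 18 genes held regulators of mitotic entry and other cell cycle genes, such as GAS2L3, TROAP and MELK. Of these, 17 rose in WT8 (median 1.77) and 1, PPP2R2A, a regulatory subunit of a phosphatase, was not called. Those that rose included WEE1 (1.77 ± 0.07) and PKMYT1 (3.15 ± 0.07), kinases that restrain CDK1, and its activators CDC25A (2.45 ± 0.06) and CDC25C (1.06 ± 0.12).

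The lists of the APC/C and of cohesin and condensin subunits had smaller medians. Among 16 genes for APC/C subunits and cofactors, the median change with shBMAL1 in WT8 was 0.19. Of these, 9 rose, 3 (ANAPC2, ANAPC16 and CDC16) fell and 4 were not called. The shares over all genes tested were 32.9% higher and 36.9% lower. Between the lines 6 of the 16 were higher, 6 lower and 4 not called (median -0.06), shares near the 39.3% and 40.2% of all genes tested. CDC20 and UBE2C, which act with these subunits, had changes in WT8 of 1.82 and 2.13, while ANAPC1, the largest subunit, was at 0.04 ± 0.05 and was not called. Of 13 genes for cohesin, its regulators and condensin subunits (NCAPD2 of condensin I and 3 of condensin II), 13 rose in WT8, with a median of 0.73. NCAPD2 rose by 1.68 ± 0.04. RAD21, the cohesin subunit that separase cuts, rose by 0.73 ± 0.05.

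Among 18 transcription regulators of the cell cycle, 15 rose and 2 fell with shBMAL1 in WT8 (median 1.44), beside 32.9% and 36.9% of all genes tested. Between the lines with shControl 12 were lower and 4 higher (median -1.39), beside 40.2% and 39.3%. FOXM1, which activates late cell cycle genes, had 219.6 ± 8.39 CPM in 786O shControl, 210.1 ± 7.91 in 786O shBMAL1, 38.5 ± 1.17 in WT8 with shControl and 189 ± 0.259 in WT8 with shBMAL1. MYBL2, the MuvB partner B-MYB, had 307 ± 14.5, 469.6 ± 6.65, 54.2 ± 1.49 and 629 ± 21.1 CPM in the same order, and it rose in 786O also, by 0.61 ± 0.04. The activator E2F1 rose by 3.32 ± 0.08 in WT8 and the repressor E2F8 by 4.08 ± 0.11, the largest rise of the 18. E2F4 (-0.06 ± 0.05) and RBL2 (-0.11 ± 0.05), which form the DREAM complex with MuvB in resting cells, were at or near 0. E2F4 was not called and RBL2 was called lower. LIN37, a MuvB subunit, was called lower (-0.68 ± 0.11). The other MuvB subunits in the list rose, LIN9 by 2.21 ± 0.11, LIN54 by 1.58 ± 0.08 and LIN52 by 1.09 ± 0.25. RBL1 rose by 2.62 ± 0.08. The 4 that were higher in WT8 than in 786O with shControl were LIN37, E2F3, E2F4 and E2F5.

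Genes of DNA replication, which act before mitosis, had medians near those of the mitotic genes. Of 34, 34 rose with shBMAL1 in WT8 (median 2.30), beside 32.9% of all genes tested. Between the lines with shControl 33 were lower (median -2.34), beside 40.2%. The exception between the lines was POLE2, higher by 0.48 ± 0.12 in WT8. In 786O, 12 rose, 7 fell and 15 were not called (median 0.04), beside 24.5% higher and 24.4% lower of all genes tested.

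**Figure D5:**
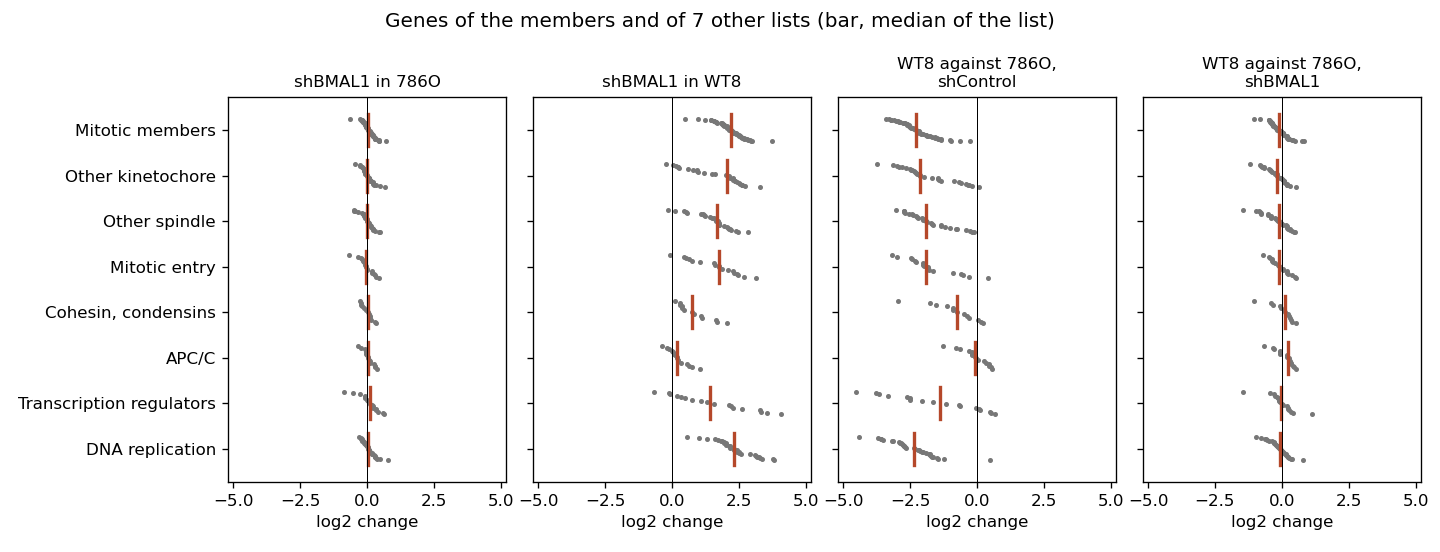
Log2 change (horizontal axis) of each gene (points) of the 55 mitotic genes and of 7 related lists in 4 comparisons, with the median of each list as a bar. With shBMAL1 in WT8 the medians run from 0.19 for the APC/C to 2.30 for DNA replication, and in 786O all medians lie within 0.11 of 0.

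For some of the 55 genes the counts are less certain, since how reads with more than 1 alignment or strand were assigned is not stated. Pseudogenes are annotated for CCNB2, AURKA, AURKB, BUB1, BUB3, MAD2L1, CDC20, SGO1, UBE2C, CENPI, DLGAP5, NCAPG, SMC4 and MKI67. BUB1B shares exonic sequence on the same strand with PAK6, CENPA with SLC35F6 and NUSAP1 with OIP5-AS1. NUSAP1 and PRC1 also share longer stretches on the same strand with gene models that have no symbol. Antisense genes overlap exons of SGO1, KIF23, PRC1 and HMMR, and exons of neighbours on the opposite strand overlap those of others, among them NCAPG with LCORL and SMC4 with TRIM59. PTTG2, a copy of PTTG1, was listed with 2.91, 2.90, 1.28 and 3.83 CPM on average in the 4 groups.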

How the data were processed

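RNA of 12 libraries (4 groups, 3 replicates each) was sequenced as stranded mRNA. The instrument was recorded as DNBSEQ, whereas the study's methods name a BGISEQ model for RNA from cell lines. The deposited table holds estimated counts for each gene. The study's methods name alignment to GRCh37 with SeqMan NGen and counting with ArrayStar, whereas the submitters' processing notes list hg38, STAR and DESeq2, and which applies to the deposited counts was not settled. Of the deposited values, 47.0% were a stand-in of 0.028 for 0, which was set to 0, and 5.67% of the others were not whole and were rounded. Lines with the same name were summed. A value of 2 was listed more often (14754 times) than a value of 1 (11117 times).

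Genes with low counts were removed with filterByExpr, libraries were scaled by TMM (factors 0.948 to 1.04) and edgeR 4.0.16 (R 4.3.3) was used for quasi-likelihood tests in 1 fit of the 4 group means, with Benjamini-Hochberg adjustment over the 16838 genes tested and calls at an adjusted p under 0.1. Total counts were 33182005 to 36477484 per library, and the biological coefficient of variation was 5.7%. The steps were tested on simulated data. Replicates had r of 0.988 to 0.990 on the log2 CPM scale and differed beyond sampling noise. Same replicate numbers did not pair samples. SD and SE cover the spread between libraries.

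The 55 genes and the other lists were chosen with earlier results of these data known. Values in every library are given for all 55 genes. Genes of other lists are named by their roles or, for exceptions and extremes, by their values. Alternatives were RLE or total-count scaling, no filter, DESeq2 1.42.0, only the groups compared, a replicate block, leaving out each library, and stricter calls. Gene positions and exon lengths came from the GRCh37 GENCODE annotation, which may not be the one the counts used. Promoter windows came from RefSeq (GRCh38.p14) and matched 48 of the 55 genes by symbol. The values of 1 marker gene are not reported here.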

Additional observations from a re-analysis of the deposited data

Results flagged for a closer look

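The change with shBMAL1 differed between the lines, by a test of the difference itself, for 55 of the 55 mitotic genes, all with a higher change in WT8, beside 27.4% of all genes tested with a higher change and 28.5% with a lower one, with a median interaction of 2.15 on the log2 scale. NCAPG, of condensin I, had the largest interaction, 3.11, and BUB3, of the spindle checkpoint, the smallest, 0.43. The calls were in opposite directions, lower in 786O and higher in WT8, for 11 genes. All 55 rose in WT8, so these 11 were the genes called lower in 786O, beside 24.4% of all genes tested called lower there. Among these ESPL1, separase, had an interaction of 2.29 and the largest fall in 786O. The fall in 786O of KIF14, KIF23, MAD2L1, NCAPG and TPX2 lost its call when a library was left out. The interaction and the comparisons within each line share libraries.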

How the results depend on the processing

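The 55 genes kept their direction and their call for shBMAL1 in WT8, for WT8 against 786O with shControl and for the interaction under each alternative scaling, filter, tool, replicate block and omitted library, and only BUB3 was lost in these 3 comparisons when a change of more than 1.5-fold was also required. With that requirement 2 genes remained called for shBMAL1 in 786O (SPC24 and ESPL1) and 4 for WT8 against 786O with shBMAL1 (BUB1, CDCA8, NCAPH and TOP2A). Scaling by total counts alone moved the median difference between the lines to -2.14 with shControl and to -0.03 with shBMAL1. It moved the median of all genes tested by 0.12 and 0.11, and relative to that the medians of the 55 genes were -2.26 and -0.14. With shBMAL1 that scaling called 43 genes, 22 higher and 21 lower, and KIF11 was reversed to 0.01. Mean log2 CPM values under that scaling were 6.70, 6.79, 4.62 and 6.79 in 786O shControl, 786O shBMAL1, WT8 shControl and WT8 shBMAL1.

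When each library was left out in turn, 27 to 31 genes were called for shBMAL1 in 786O, 39 to 45 for WT8 against 786O with shBMAL1, and 55 in each other comparison. The medians ranged from 0.04 to 0.07 for shBMAL1 in 786O, from 2.16 to 2.26 for shBMAL1 in WT8, from -2.29 to -2.21 and from -0.14 to -0.11 for WT8 against 786O with shControl and shBMAL1, and from 2.13 to 2.18 for the interaction. For shBMAL1 in 786O, 31 genes were called by DESeq2 and 29 at an adjusted p under 0.05.

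Samples with the same replicate number did not deviate together (18 pairs, r from -0.0411 to 0.0439), and 3 of 12 libraries correlated best with their own number. With the replicate number as a block, 32 genes were called for shBMAL1 in 786O, where only TPX2 was lost (adjusted p 0.103), 45 for WT8 against 786O with shBMAL1 and 55 in each other comparison. The low counts of SPC24 in WT8 shControl limit its precision most.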
